A study of Mus musculus with 2 samples.

Results

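Transcripts of 31 enzymes of glycolysis, the pyruvate dehydrogenase complex, the tricarboxylic acid (TCA) cycle and the routes that feed it were measured in single islet cells, out of 28692 genes in the count matrices. The genes were chosen by symbol, and all 31 were present. They comprise 13 genes of glycolysis (Gpi1, Pfkl, Pfkm, Pfkp, Aldoa, Tpi1, Gapdh, Pgk1, Pgam1, Eno1, Eno2, Pkm and Bpgm, the last of a side route through bisphosphoglycerate), 4 subunits of the pyruvate dehydrogenase complex (Pdha1, Pdhb, Dlat, Dld), and the gene of pyruvate carboxylase, Pcx. The cycle itself was represented by Cs, Idh3a, Idh3b, Idh3g, Ogdh, Dlst, Suclg1, Sucla2 and Mdh2. Mdh1, Got1 and Got2 act with Mdh2 in the malate-aspartate shuttle, and Me1 encodes the cytosolic malic enzyme.

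In glycolysis, glucose is broken down to pyruvate in the cytosol. Pyruvate enters the cycle either as acetyl-CoA, made by pyruvate dehydrogenase, or as oxaloacetate, made by pyruvate carboxylase; the second route refills the cycle and is called anaplerosis. Beta cells are known for low lactate dehydrogenase and for a strong flux through pyruvate carboxylase, which is linked to insulin secretion. Several steps are served by isozymes from different genes, so that the same reaction can rest on different transcripts in different cell types.

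The study concerns BAF60C, a subunit of a chromatin-remodelling complex encoded by Smarcd3. It holds 1 library of islet cells from BcBKO mice, in which the gene is described as ablated in beta cells with a Pdx1-cre driver, and 1 library of islet cells from flox/flox mice. Pdx1 is also active in pancreatic progenitors. Each library was pooled from at least 3 mice of unstated age, so there is 1 library per genotype and no replicate: no difference between the genotypes is tested, and intervals cover counting error only. In beta cells Smarcd3 had 71 UMIs (unique molecular identifiers, each standing for 1 RNA molecule), or 2.09 CPM, in the library labelled BcBKO and 45 UMIs, or 1.35 CPM, in the flox/flox library. The level was not lower in the library labelled BcBKO. A 3′ tag may lie outside the deleted part, which the labels do not give, so these counts cannot check the deletion, and the library is called by its label.

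Cells were sorted into 6 classes by hormone shares and marker UMIs, none of which are among the 31 genes. The library labelled BcBKO gave 3058 beta, 634 alpha, 308 delta, 996 endothelial, 163 mural and 331 macrophage barcodes, and the flox/flox library 2750, 377, 242, 1178, 223 and 422. Total UMIs were 178647270 in the library labelled BcBKO and 167670996 in the flox/flox library. Median UMIs per barcode ran between 3611 (mural) and 33172 (beta) in the library labelled BcBKO, and between 4293 (endothelial) and 38462 (beta) in the flox/flox library, and 23 barcode sequences occurred in both. Defining markers followed the class names, with exceptions. Ppy and Pyy, hormones of pancreatic polypeptide cells, summed to 104569 and 101212 CPM of all UMIs in the delta class, 69686 and 81974 in the alpha class, and 7739 and 5419 in the endothelial class in the library labelled BcBKO and the flox/flox library. In macrophages they summed to 14996 CPM of all UMIs in the library labelled BcBKO and 698 in the flox/flox library. Lepr, a marker on the delta list, had no UMIs in the delta class of either library. Duct markers (Krt19, Spp1, Sox9, Krt18) were highest in the mural class, with 1419 CPM of all UMIs in the library labelled BcBKO and 1038 in the flox/flox library. The part of duct RNA in the mural results was not tested. Insulin transcripts made up between 1.97% and 5.61% of UMIs in the non-beta classes, and 595 barcodes of the library labelled BcBKO and 629 of the flox/flox library that met the rule of more than 1 class were left out. Acinar enzyme transcripts were lower in the library labelled BcBKO in every class, with 27.9 CPM of all UMIs in beta cells there, against 178 in those of the flox/flox library. Their part in the results was not tested.

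Levels are in CPM, here UMIs per 1000000 of a class's UMIs after leaving out islet hormone and mitochondrial genes, since insulin alone took 62.0% and 64.3% of the UMIs of beta cells in the library labelled BcBKO and the flox/flox library. Each UMI marks the 3′ end of a molecule, so a level does not grow with gene length, but capture differs between genes. Pgk1, the gene of an abundant enzyme, had only 9.55 and 13.5 CPM in beta cells of the library labelled BcBKO and of the flox/flox library.

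Pcx, Eno2 and Got1 serve the entry of pyruvate, the enolase step and the shuttle, whose makeup by class is described below, and the 250 bases before their RefSeq start sites are shown for that reason (GRCm38.p6, given 5′ to 3′ on the strand of the gene). Capitals mark matches on either strand to an E-box (CACGTG), the core of the hypoxia-response element (ACGTG, which also matches within the E-box), the GC box (GGGCGG), the TATA box (TATAAA) and the CCAAT box (CCAAT).
Pcx, first start, chr19:4510222-4510471, plus strand: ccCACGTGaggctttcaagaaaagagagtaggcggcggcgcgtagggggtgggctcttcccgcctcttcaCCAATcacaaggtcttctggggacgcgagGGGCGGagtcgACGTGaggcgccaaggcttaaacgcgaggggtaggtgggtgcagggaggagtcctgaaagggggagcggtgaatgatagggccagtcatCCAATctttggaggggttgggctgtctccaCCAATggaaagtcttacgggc
Pcx, second start, chr19:4594069-4594318, plus strand: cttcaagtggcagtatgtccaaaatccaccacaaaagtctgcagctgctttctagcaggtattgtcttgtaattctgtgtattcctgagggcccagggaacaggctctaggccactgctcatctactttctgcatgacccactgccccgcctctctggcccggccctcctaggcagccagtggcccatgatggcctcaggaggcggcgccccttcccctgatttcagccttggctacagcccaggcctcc
Eno2, chr6:124769674-124769923, minus strand: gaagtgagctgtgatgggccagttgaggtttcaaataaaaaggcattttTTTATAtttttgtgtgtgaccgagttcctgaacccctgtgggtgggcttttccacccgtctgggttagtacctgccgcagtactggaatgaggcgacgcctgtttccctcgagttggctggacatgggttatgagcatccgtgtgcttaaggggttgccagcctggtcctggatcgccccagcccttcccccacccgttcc
Got1, chr19:43524606-43524855, minus strand: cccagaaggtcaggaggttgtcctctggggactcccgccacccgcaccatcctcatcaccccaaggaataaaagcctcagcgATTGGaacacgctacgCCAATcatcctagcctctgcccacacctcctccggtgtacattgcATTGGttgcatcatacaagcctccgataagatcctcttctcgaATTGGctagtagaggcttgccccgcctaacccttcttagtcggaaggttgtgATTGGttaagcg

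The first Pcx window had 1 E-box, 3 matches to the hypoxia-response core (2 of them within the E-box), 1 GC box and 3 CCAAT boxes, whereas the second had none of the 5 motifs. The Eno2 window had 1 TATA box and the Got1 window 5 CCAAT boxes. Over all 32851 windows of this length in the table, 6.02% held the E-box, 16.6% the hypoxia-response core, 32.7% the GC box, 12.4% the TATA box and 33.9% the CCAAT box. Of the 45 windows found for 30 of the 31 genes, 11.1% held the E-box, 40% the hypoxia-response core, 46.7% the GC box, 4.44% the TATA box and 44.4% the CCAAT box. GC content differed too, with a median of 59.2% in the windows of these genes and 52.4% over all windows. These are matches of letters, not measured binding.

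The first question was whether any of these enzymes differed between the genotypes in beta cells. Of the 29 genes whose level was 20 CPM or more in at least 1 library, none reached a log2 ratio of 0.25 in the library labelled BcBKO over flox/flox, and none reached -0.25. Among all 7257 genes at that level, 3.79% lay at or above 0.25 and 3.82% at or below -0.25. The median log2 ratio was -0.01 over the 29 genes and -0.01 over all genes, and 14 of the 29 lay above 0. Log2 ratios are of CPM plus 1.

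At the upper end stood Eno2 (ENSMUSG00000004267, chr6:124760053-124769673, minus strand), the enolase typical of neurons and endocrine cells. It had 36.1 CPM (95% Poisson interval 34.2 to 38.2) in beta cells of the library labelled BcBKO and 30.3 CPM (28.4 to 32.2) in those of the flox/flox library. That is a ratio of 1.19 (exact interval 1.10 to 1.30) and a log2 ratio of 0.25, just under the threshold; it passed when the pseudocount was 0.1 CPM, when called doublets were removed or under stricter class thresholds. Next came Me1 with 21.8 and 18.7 CPM in beta cells of the library labelled BcBKO and of the flox/flox library (ratio 1.16), and Gapdh, glyceraldehyde-3-phosphate dehydrogenase, with 719 and 639 CPM (ratio 1.13). Got1, the cytosolic aspartate aminotransferase, had 52.1 CPM in the library labelled BcBKO and 46.2 CPM in the flox/flox library.

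At the lower end stood Sucla2, the ATP-forming succinyl-CoA ligase subunit, with 72.2 CPM in beta cells of the library labelled BcBKO and 82.1 CPM in those of the flox/flox library, a log2 ratio of -0.18. Dld, Pdhb, Pfkl and Aldoa had log2 ratios of -0.15, -0.15, -0.15 and -0.14. Pgk1 and Pfkp were below 20 CPM in both libraries. Of these, Pgk1 (phosphoglycerate kinase) had the log2 ratio farthest from 0 of all 31 genes, -0.46, from 324 UMIs in the library labelled BcBKO and 450 in the flox/flox library. Pcx had a ratio of 1.04 (0.956 to 1.12), an interval that includes equal levels.

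**Figure D1:**
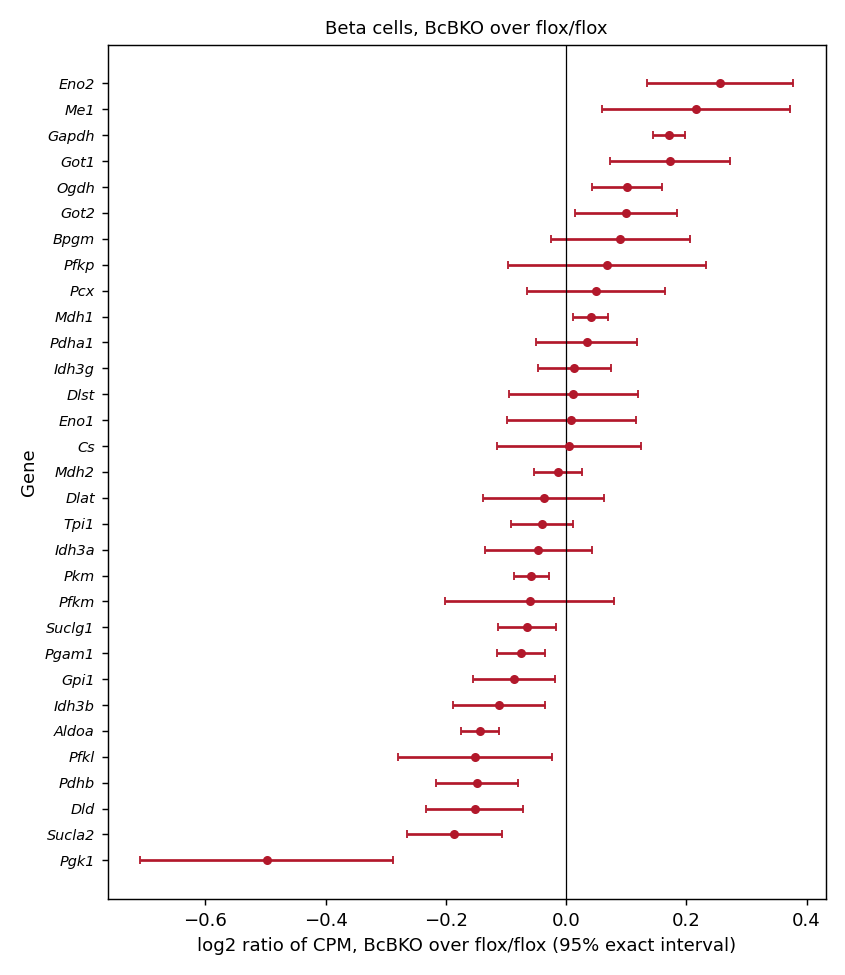
Ratio of CPM in beta cells, library labelled BcBKO over flox/flox, on a log2 scale for the 31 genes, ordered by ratio, without the pseudocount. Points are ratios and bars are 95% exact intervals for counting error; apart from Pgk1, the genes lie close to 0 on both sides, with Eno2 highest.

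In the other classes the same comparison used genes whose level was 50 CPM or more in at least 1 library. Alpha cells had 2 of 16 genes at or above 0.25 (Tpi1, triose-phosphate isomerase, and Got2, the mitochondrial aspartate aminotransferase), where 8.60% of all genes were, and 0 at or below -0.25, where 4.51% were. Delta cells had 2 of 17 (Dld and Got2) at or above 0.25, where 11.2% of all genes were, and 0 at or below -0.25, where 11.2% were as well. Endothelial cells had 0 of 17 in either direction, against 6.60% and 6.82% of all genes. Mural cells, the class with the fewest UMIs, had 2 of 23 at or above 0.25 (Tpi1 and Got2; all genes 22.0%) and 3 at or below -0.25 (Pgam1, Pkm and Pdhb; all genes 21.8%). Macrophages had 2 of 14 at or above 0.25 (Idh3b and Mdh1; all genes 11.3%) and 1 at or below -0.25 (Eno1; all genes 16.4%). These counts are small, and nothing is read from them about the enzymes. In mural cells 4 of the 23 genes had a log2 ratio above 0 and their median was -0.16, where 50.8% of all genes lay above 0 with a median of 0.01. In the other 4 classes the medians of the genes tested lay between -0.003 and 0.07, and those of all genes between -0.005 and 0.03.

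The classes differed far more than the genotypes. Glycolysis genes without Bpgm summed to 2455 CPM in beta cells of the library labelled BcBKO and 2472 CPM in those of the flox/flox library, and the 9 genes of the cycle to 1060 and 1079 CPM. The ratio of the first sum to the second, which does not depend on scaling, was 2.32 and 2.29 in beta cells of the library labelled BcBKO and of the flox/flox library. It was lowest in alpha cells (2.18 and 2.22) and highest in macrophages (3.43 and 3.61), with delta (2.46 and 2.54), mural (2.72 and 2.68) and endothelial cells (2.82 and 2.70) between them. The order of the 6 classes was the same in both libraries.

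**Figure D2:**
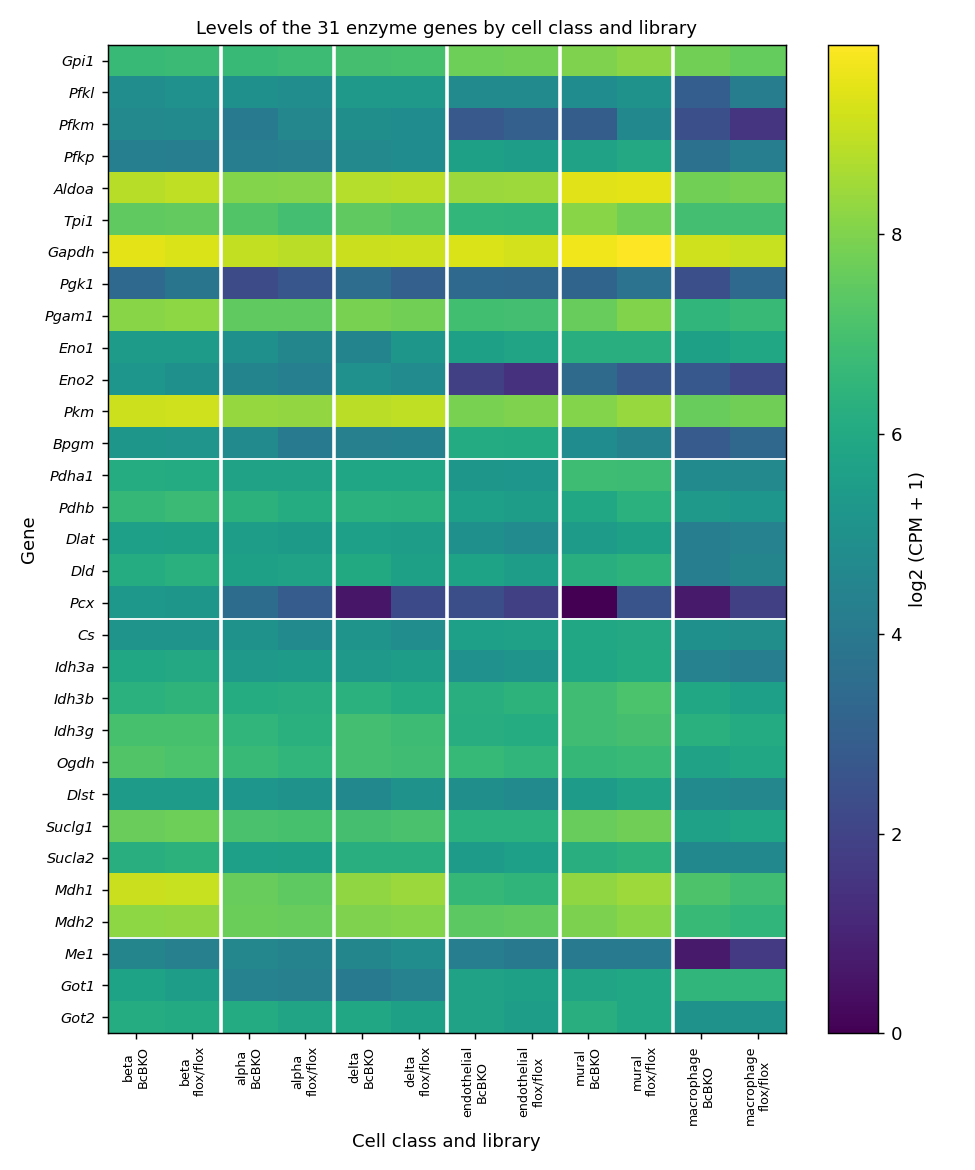
Levels of the 31 genes as log2 of CPM plus 1 in 6 classes, each with the library labelled BcBKO left of the flox/flox library. Gapdh, Aldoa, Pkm and Mdh1 are bright in beta cells, and Pcx is dark in delta, mural and macrophage cells.

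Class differences were tested with edgeR on 12 sums, 6 classes in each of 2 libraries, with the library as a term and adjustment over 13518 genes. A gene was called at an adjusted p under 0.05 and at least 1.5-fold. Both libraries, 1 of each genotype, count as the replicates. An overall difference between them is taken up by the library term. The p-values therefore measure how far class differences vary between the 2 libraries. That spread is estimated over all 6 classes together, not for each class. Fitted log2 differences use TMM factors, between 0.622 in macrophages and 1.31 in delta cells, and are therefore not the plain ratio of the CPM printed.

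Against alpha cells, 9 of the 31 genes (29.0%) were higher in beta cells and 0 lower, while of all genes 19.7% were higher and 12.3% lower. Against delta cells, 8 (25.8%) were higher and 0 lower, where 17.8% and 11.8% of all genes were. Against endothelial cells, 9 (29.0%) were higher and 5 (16.1%) lower, where 31.9% and 28.7% of all genes were. Against mural cells the balance turned, with 3 (9.68%) higher and 8 (25.8%) lower, where 25.2% and 23.4% of all genes were. In the library labelled BcBKO, 502 of 665 barcodes meeting the mural rule were left out for meeting another too. The flox/flox library lost 571 of 794 in the same way. With barcodes of several classes kept, more of the 31 genes were higher than lower over mural cells. Against macrophages, 14 (45.2%) were higher and 6 (19.4%) lower, where 33.4% and 25.8% of all genes were. Median log2 differences of the 31 genes were 0.44, 0.43, 0.28, -0.15 and 0.42 against alpha, delta, endothelial, mural and macrophage cells, beside 0.12, 0.13, 0.05, 0.11 and 0.25 over all genes. Only 25 of the 74 calls over 6 contrasts held under all 12 other settings; 47 held when the scaling to all UMIs, in which hormone UMIs count in the total, is set aside. Under that scaling the median of all genes moved to between -1.39 and -0.53 in the 5 beta-cell contrasts, and 21 of the 74 calls were reversed and 13 were lost. Values under that scaling are given below mainly for calls that turned, so a call without one may also have been lost.

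**Figure D3:**
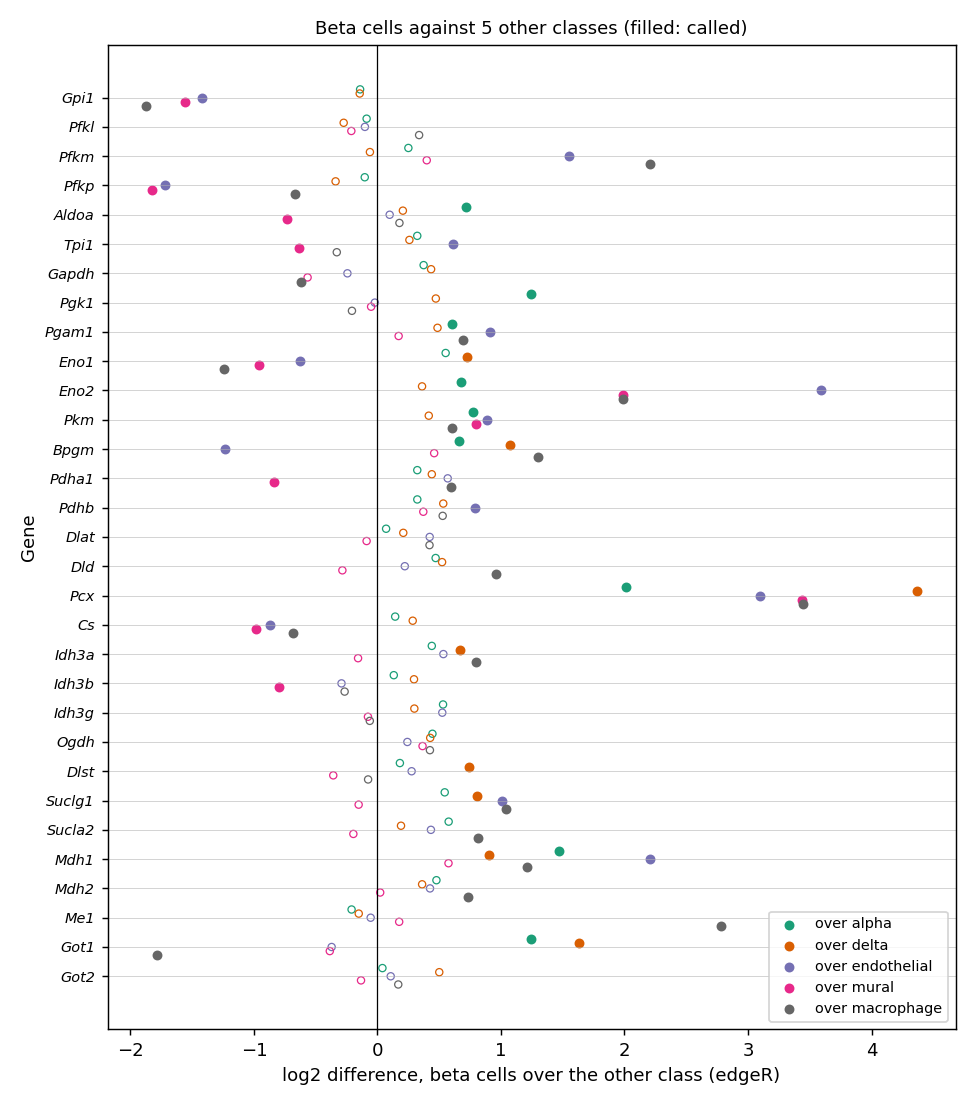
Fitted log2 differences of the 31 genes, beta cells over each of 5 other classes. Filled points are called; Pcx lies above 2 in all 5, and Gpi1 and Pfkp lie below 0 against the 3 non-endocrine classes.

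At the entry of pyruvate into the cycle, Pcx (ENSMUSG00000024892, chr19:4510472-4621752, plus strand) stood out. In beta cells it had 37.8 CPM (35.8 to 40.0) in the library labelled BcBKO and 36.5 CPM (34.5 to 38.7) in the flox/flox library. Alpha cells had 10.3 CPM in the library labelled BcBKO and 6.31 CPM in the flox/flox library, and endothelial cells 4.26 and 2.67 CPM. In the remaining classes it was close to absent: delta cells had 1 UMI in the library labelled BcBKO and 6 in the flox/flox library, mural cells 0 and 5, and macrophages 1 and 6. All 10 values outside beta cells lay below both beta-cell values. For the mural sum with 0 UMIs, 3 UMIs would be 4.86 CPM, still below the beta-cell level.

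Pcx was higher in beta cells against alpha (log2 difference 2.02, adjusted p = 8.13e-06), delta (4.37, adjusted p = 1.39e-06), endothelial (3.1, adjusted p = 7.26e-08), mural (3.44, adjusted p = 9.62e-05) and macrophage cells (3.44, adjusted p = 1.59e-05). It was the only one of the 31 genes called against all 5 other classes in the same direction, and the only call against alpha or delta cells that held under every other setting. Scaled to all UMIs, its log2 difference was 1.11 over alpha, 3.06 over delta, 1.78 over endothelial, 1.94 over mural and 2.66 over macrophage cells. Free RNA was measured by scaling beta-cell counts to the insulin UMIs found in each class. On that measure alpha cells would hold 3.54 Pcx UMIs in the library labelled BcBKO and 1.67 in the flox/flox library, against 46 and 19 observed. In delta cells the same figures were 1.66 and 1.07, against 1 and 6 observed. The delta-cell count thus lay at this background in the library labelled BcBKO and above it in the flox/flox library.

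Pdha1, the E1 alpha subunit of pyruvate dehydrogenase, did not follow that pattern. It had 69.7 and 68.1 CPM in beta cells of the library labelled BcBKO and of the flox/flox library, with 51.3 and 51.8 CPM in alpha cells, and 112 and 109 CPM in mural cells. Taken as a share of Pcx plus Pdha1, which is free of scaling, Pcx made up 35.2% (exact interval 33.6 to 36.8) in beta cells of the library labelled BcBKO and 34.9% (33.3 to 36.5) in those of the flox/flox library. In alpha cells the share was 16.7% (12.5 to 21.7) in the library labelled BcBKO and 10.9% (6.66 to 16.4) in the flox/flox library. It was 0.926% and 6.12% in delta, 10.4% and 6.93% in endothelial, 0% and 4.31% in mural, and 2.44% and 10.0% in macrophage cells. No interval outside beta cells reached the beta-cell intervals. A share of 0 of 69 UMIs in mural cells allows up to 5.21%.

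Of the other subunits, Pdhb was higher in beta than in endothelial cells (log2 difference 0.79; -0.54 with all UMIs), Pdha1 and Dld were higher than in macrophages (0.59 and 0.96; Pdha1 -0.19 with all UMIs), and Pdha1 was lower than in mural cells (-0.84). Dlat, the acetyltransferase core, was called in none of the 6 contrasts.

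Glutamate is the other large source of carbon for the cycle, through glutamate dehydrogenase (Glud1). This gene ran opposite to Pcx: it had 82.5 and 76.1 CPM in beta cells of the library labelled BcBKO and of the flox/flox library, and between 113 and 168 CPM in every other class. Beta cells were lower in all 5 contrasts, with log2 differences between -1.58 (macrophage) and -0.62 (delta). Pcx made up 31.4% and 32.4% of Pcx plus Glud1 in beta cells of the library labelled BcBKO and of the flox/flox library, and 6.08% and 4.02% in alpha cells.

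**Figure D4:**
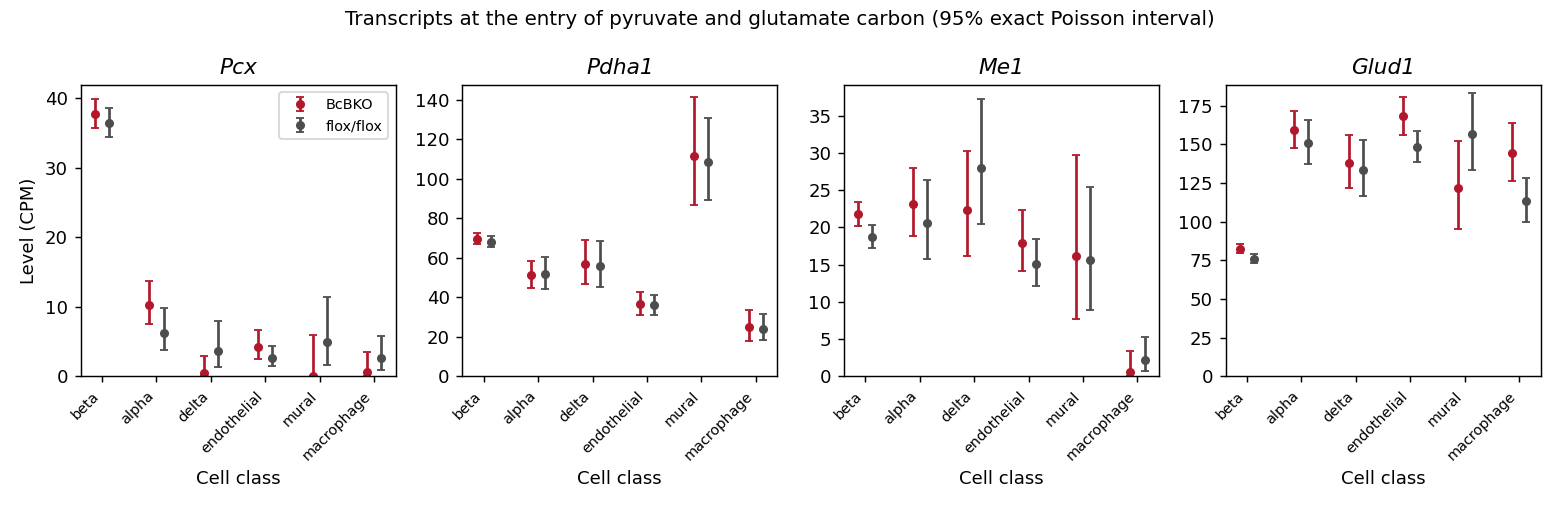
CPM of Pcx, Pdha1, Me1 and Glud1 by class, with the library labelled BcBKO in red and flox/flox in grey and 95% exact Poisson intervals. Beta cells are highest for Pcx and lowest for Glud1, while Pdha1 is highest in mural cells.

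Malic enzymes return malate carbon to pyruvate. Me1 was at like levels in beta (21.8 and 18.7 CPM in the library labelled BcBKO and the flox/flox library), alpha (23.1 and 20.6 CPM), delta (22.4 and 27.9 CPM), endothelial (17.9 and 15 CPM) and mural cells (16.2 and 15.7 CPM). Macrophages had 1 UMI in the library labelled BcBKO and 5 in the flox/flox library, and Me1 was higher in beta cells than there (log2 difference 2.78, adjusted p = 2.39e-05). The makeup of the malic enzymes differed between alpha and beta cells. Me3, a mitochondrial form, gave 27.2% (25.1 to 29.3) of malic enzyme UMIs in beta cells of the library labelled BcBKO and 25.8% (23.6 to 28.0) in those of the flox/flox library, against 2.04% (0.423 to 5.85) and 1.18% (0.0298 to 6.38) in alpha cells. Alpha cells held 3 Me3 UMIs in the library labelled BcBKO and 1 in the flox/flox library, near the 1.30 and 0.546 that free RNA would give. Me1 correspondingly made up 70.1% and 72.9% in alpha cells of the library labelled BcBKO and of the flox/flox library, and 42.5% and 40.5% in beta cells. Delta cells resembled beta cells for Me3, with 28.0% (19.1 to 38.2) in the library labelled BcBKO and 20.2% (12.3 to 30.4) in the flox/flox library. Endothelial cells had larger Me3 shares, 38.1% (31.3 to 45.4) in the library labelled BcBKO and 36.0% (29.9 to 42.5) in the flox/flox library. By level, Me3 was lower in beta than in endothelial cells (log2 difference -0.61).

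Isozyme use was compared next, as shares of the UMIs of enzymes of the same step. Such shares depend on no scaling, but capture may differ between isozymes, so they are read across classes. Phosphofructokinase, the committed step of glycolysis, is encoded by Pfkl (liver type), Pfkm (muscle type) and Pfkp (platelet type). In beta cells all 3 were detected. Pfkl had 28.1 and 31.2 CPM, Pfkm 24.0 and 25 CPM and Pfkp 18.6 and 17.7 CPM in the library labelled BcBKO and the flox/flox library. Pfkl levels in alpha, delta, endothelial, mural and macrophage cells, in that order, were 30.0, 40.0, 24.9, 27.5 and 6.83 CPM in the library labelled BcBKO, and 28.2, 39.5, 24.9, 33.3 and 17.0 CPM in the flox/flox library. For Pfkp, taken in the same order of classes, they were 17.7, 24.0, 48.4, 51.8 and 12.4 CPM in the library labelled BcBKO, and 18.9, 27.3, 45.6, 61.7 and 17.9 CPM in the flox/flox library. Outside macrophages every Pfkl value lay between 24.9 and 40.0 CPM, and all 4 endothelial and mural values of Pfkp lay above the other 8.

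Pfkp made up 26.3% (24.6 to 28.1) of the set in beta cells of the library labelled BcBKO and 24.0% (22.3 to 25.7) in those of the flox/flox library. Its share in alpha cells (27.6% and 27.0%) and delta cells (25.7% and 29.0%) had intervals that overlapped these. In endothelial cells Pfkp gave 61.2% (55.9 to 66.3) in the library labelled BcBKO and 58.7% (54.1 to 63.2) in the flox/flox library, in mural cells 60.4% and 52.1%, and in macrophages 52.6% and 48.8%. All 6 endocrine shares lay below all 6 non-endocrine ones, although the interval of macrophages in the library labelled BcBKO met that of flox/flox delta cells. Pfkp was lower in beta than in endothelial (log2 difference -1.72, adjusted p = 1.38e-09) and mural cells (-1.82, adjusted p = 4.54e-07), and both calls held under every other setting. Against macrophages the call (-0.67) turned to 0.23 without TMM factors.

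Pfkm mirrored this. It formed 33.9% and 33.8% of the set in beta cells of the library labelled BcBKO and of the flox/flox library, and 7.37% (4.87 to 10.6) and 9.25% (6.77 to 12.3) in endothelial cells. Its level was higher in beta than in endothelial cells (log2 difference 1.55, adjusted p = 1.31e-05) and macrophages (2.21, adjusted p = 0.000236). Its levels in alpha, delta, endothelial, mural and macrophage cells were 16.4, 29.3, 5.82, 6.48 and 4.35 CPM in the library labelled BcBKO, and 22.9, 27.3, 7.18, 23.5 and 1.79 CPM in the flox/flox library. In mural cells the libraries differed, with 4 UMIs in the library labelled BcBKO and 24 in the flox/flox library.

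Enolase showed the sharpest split. Eno2 was 41.3% (39.5 to 43.1) of enolase UMIs in beta cells of the library labelled BcBKO and 36.4% (34.6 to 38.2) in those of the flox/flox library, 35.8% and 39.6% in alpha cells, and 52.7% (43.0 to 62.2) and 37.4% (28.5 to 46.9) in delta cells. Outside the endocrine classes it was 4.98% and 2.93% in endothelial, 11.5% and 6.74% in mural, and 9.28% and 5.37% in macrophage cells, with Eno1, the ubiquitous form, at 79.4% or more. In beta cells the intervals of the libraries did not overlap; Eno3, the muscle form, moved the other way, with 10.3% (9.24 to 11.5) in the library labelled BcBKO and 13.1% (11.8 to 14.4) in the flox/flox library. With 1 library per genotype this is a difference between libraries.

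Eno2 was higher in beta cells than in endothelial (log2 difference 3.59, adjusted p = 1.57e-10), mural (1.98, adjusted p = 2.58e-05) and macrophage cells (1.99, adjusted p = 3.74e-06). Eno1 was lower in beta cells in the same 3 contrasts (-0.63, -0.96 and -1.24). Eno2 levels in alpha, delta, endothelial, mural and macrophage cells were 20.8, 31.4, 2.69, 9.71 and 5.59 CPM in the library labelled BcBKO, and 18.3, 26.1, 1.67, 5.87 and 3.58 CPM in the flox/flox library. Eno1 levels in those classes were 30.3, 21.3, 48.2, 74.5 and 47.8 CPM in the library labelled BcBKO, and 22.3, 36.5, 53.6, 73.4 and 58.7 CPM in the flox/flox library. All 6 endocrine values of Eno2 lay above all 6 values of the other classes, which were at most 9.71 CPM.

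**Figure D5:**
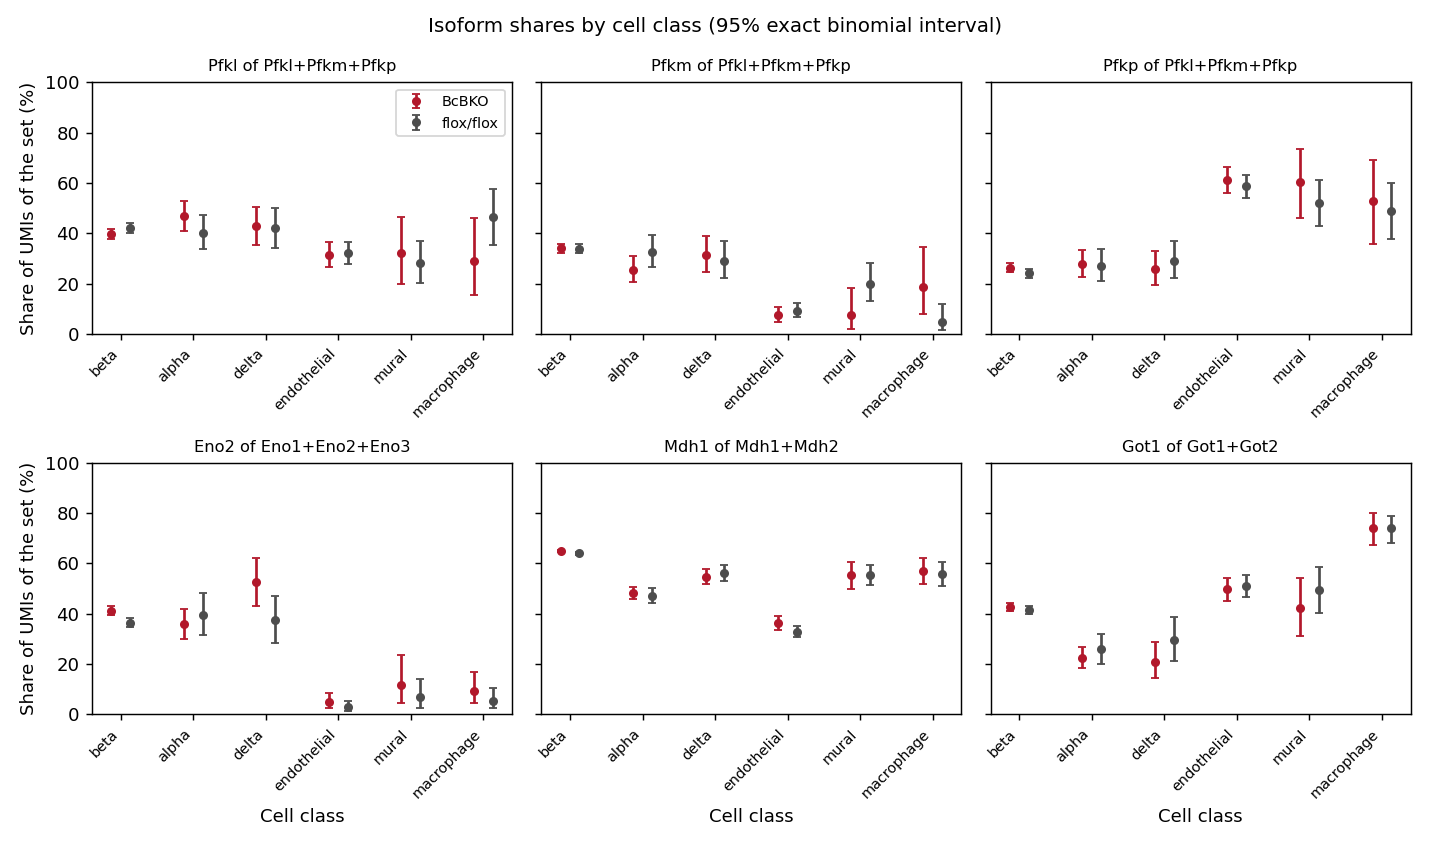
Shares of the UMIs of an isozyme set by class, with the library labelled BcBKO in red left of flox/flox in grey and 95% exact binomial intervals. Pfkp and Eno2 separate endocrine from non-endocrine classes, whereas Mdh1 and Got1 are higher in beta than in alpha cells.

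Aldolase and pyruvate kinase, in contrast, rested on 1 gene throughout. Aldoa formed between 95.8% and 99.8% of aldolase UMIs and Pkm at least 98.2% of pyruvate kinase UMIs in every class and library. The M1 and M2 forms of Pkm share their 3′ end and cannot be told apart here. Pkm itself had 566 and 589 CPM in beta cells of the library labelled BcBKO and of the flox/flox library, and was called higher in beta than in alpha, endothelial, mural and macrophage cells (log2 differences 0.77, 0.89, 0.80 and 0.60); scaled to all UMIs, all 4 turned negative. Pkm levels in alpha, delta, endothelial, mural and macrophage cells were 320.5, 463, 237, 265 and 194 CPM in the library labelled BcBKO, and 312, 501, 250.2, 328 and 215 CPM in the flox/flox library.

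Among the other glycolysis genes, Gpi1, glucose-6-phosphate isomerase, was lower in beta than in endothelial, mural and macrophage cells (log2 differences -1.42, -1.56 and -1.87) under every setting. Its CPM were 101 and 107 in beta cells of the library labelled BcBKO and of the flox/flox library, against 211 and 222 in endothelial and 256 and 287 in mural cells. Tpi1 and Aldoa were lower in beta than in mural cells (-0.64 and -0.74; Tpi1 0.20 with barcodes of several classes kept), and Gapdh lower than in macrophages (-0.62; 0.28 without TMM factors). Pgam1, phosphoglycerate mutase, was higher in beta than in alpha, endothelial and macrophage cells (0.61, 0.91 and 0.69), and scaled to all UMIs all 3 were negative (-0.30, -0.41 and -0.10). Pfkl was called in none of the 6 contrasts.

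Bpgm, which makes and breaks 2,3-bisphosphoglycerate in red cells, was lower in beta than in endothelial cells (log2 difference -1.24, adjusted p = 8.98e-08). It was higher in beta than in alpha, delta and macrophage cells (0.66, 1.08 and 1.30), and not called against mural cells (0.46). Scaled to all UMIs, the differences over alpha and delta cells were negative (-0.25 and -0.24). The Bpgm level was 37.1 and 34.9 CPM in beta cells of the library labelled BcBKO and of the flox/flox library, while endothelial cells had 66.3 and 65.6 CPM. The globin transcripts Hba-a1 and Hbb-bs summed to 6860 and 3220 CPM of all UMIs in endothelial cells of the library labelled BcBKO and of the flox/flox library, against 131 and 71.9 in beta cells. Mural cells had 2881 and 2618 CPM of all UMIs of globin, and 27.5 and 20.6 CPM of Bpgm, in the library labelled BcBKO and the flox/flox library. The part of red-cell RNA in the Bpgm difference between beta and endothelial cells was not tested.

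The malate-aspartate shuttle carries reducing power from glycolysis into mitochondria, with a cytosolic and a mitochondrial form of each enzyme. Its 4 genes summed to 972 and 949 CPM in beta cells of the library labelled BcBKO and of the flox/flox library, and to 487 and 443 CPM in alpha cells. Mdh1 made up most of that gap. It had 552 and 537 CPM in beta cells of the library labelled BcBKO and of the flox/flox library, with 193 and 175 CPM in alpha, 309 and 339 CPM in delta, and 95.6 and 88.4 CPM in endothelial cells. It was higher in beta cells against alpha (log2 difference 1.47, adjusted p = 1.03e-07), delta (0.90), endothelial (2.21) and macrophage cells (1.21). Scaled to all UMIs, the difference over delta cells was -0.42 (adjusted p = 0.00829). The calls over alpha and macrophage cells were then lost, with the direction kept. Mdh2 had 298 and 301 CPM in beta cells of the library labelled BcBKO and of the flox/flox library and was called against macrophages only (0.73), a call that was lost with all UMIs (-0.06). Mdh2 levels in alpha, delta, endothelial, mural and macrophage cells were 206, 255, 168, 244 and 104 CPM in the library labelled BcBKO, and 195, 264, 180.4, 279.9 and 91.4 CPM in the flox/flox library. Mdh1 had 303 and 347 CPM in mural and 138 and 116 CPM in macrophage cells of the library labelled BcBKO and of the flox/flox library.

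As a share of both malate dehydrogenases, Mdh1 was 64.9% (64.4 to 65.5) in beta cells of the library labelled BcBKO and 64.1% (63.5 to 64.6) in those of the flox/flox library. It was 48.3% and 47.2% in alpha, 54.8% and 56.2% in delta, 55.3% and 55.4% in mural, 57.1% and 55.8% in macrophage, and 36.3% and 32.9% in endothelial cells. Beta cells were highest in both libraries, without overlap of intervals.

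Got1 (ENSMUSG00000025190, chr19:43499752-43524605, minus strand) showed a like split within the endocrine classes. It gave 42.7% (41.2 to 44.2) of aspartate aminotransferase UMIs in beta cells of the library labelled BcBKO and 41.5% (39.9 to 43.1) in those of the flox/flox library, against 22.5% (18.5 to 27.0) and 25.8% (20.2 to 32.1) in alpha and 21% (14.5 to 28.8) and 29.5% (21.2 to 38.8) in delta cells. Macrophages had the highest share, 74.0% and 73.9%. By level, Got1 was higher in beta than in alpha (log2 difference 1.25, adjusted p = 1.12e-06) and delta cells (1.63, adjusted p = 1.04e-06). It was lower than in macrophages (-1.79, adjusted p = 1.44e-09). Scaled to all UMIs, the calls over alpha and delta cells were lost, with the direction kept. Got1 levels in alpha, delta, endothelial, mural and macrophage cells were 19.7, 15.4, 51.1, 53.4 and 90.1 CPM in the library labelled BcBKO, and 18.9, 20, 48.1, 59.7 and 91.4 CPM in the flox/flox library. Got2 was called in none of the 6 contrasts, with 69.8 and 65.1 CPM in beta cells of the library labelled BcBKO and of the flox/flox library. In the other classes, in the order given for Got1, Got2 had 67.9, 58.1, 51.7, 72.8 and 31.7 CPM in the library labelled BcBKO, and 54.5, 48.0, 46.1, 60.7 and 32.3 CPM in the flox/flox library.

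Within the cycle, called differences lay between -0.99 and 1.04. Cs, citrate synthase, was lower in beta than in endothelial, mural and macrophage cells (log2 differences -0.87, -0.99 and -0.69; the last was 0.21 without TMM factors). Suclg1, the shared subunit of succinyl-CoA ligase, was higher in beta than in delta, endothelial and macrophage cells (0.81, 1.00 and 1.04), of which the first 2 were negative when scaled to all UMIs (-0.51 and -0.32). Idh3a, the catalytic subunit of NAD-dependent isocitrate dehydrogenase, was higher than in delta and macrophage cells (0.66 and 0.80; over delta cells -0.66 with all UMIs), while Idh3b was lower than in mural cells (-0.79). Idh3g and Ogdh were called in none of the contrasts. The succinyl-CoA ligase beta subunits, Sucla2 (ATP-forming) and Suclg2 (GTP-forming), were both detected in beta cells. Sucla2 gave 53.3% (51.8 to 54.7) of their UMIs in the library labelled BcBKO and 56.0% (54.6 to 57.4) in the flox/flox library.

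With the endocrine classes set against the other 3, 4 of the 31 genes (12.9%) were higher (Pfkm, Eno2, Pcx and Me1) and 8 (25.8%) lower (Gpi1, Pfkp, Gapdh, Pgk1, Eno1, Cs, Idh3b and Got1), where 28.5% and 24.9% of all genes were. Of these, Pfkm, Eno2, Me1, Gpi1, Pfkp, Eno1 and Got1 held under every other setting. The Pcx call rested on beta cells and was lost with all UMIs (log2 difference 0.74, adjusted p = 0.176). Me1 in beta cells was not called against endothelial (-0.06) or mural cells (0.18). Macrophages held 1 Me1 UMI in the library labelled BcBKO and 5 in the flox/flox library. Got1 in beta cells was likewise not called against endothelial (-0.37) or mural cells (-0.39).

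Genes of the neighbouring steps, 62 in 6 lists, gave the setting. Their contrasts are given under the main scaling only. Scaled to all UMIs, fitted differences were lower in every beta-cell contrast, and the calls of these genes under that scaling are not reported here. Their counts stand beside the shares of all genes called, which were 19.7% higher and 12.3% lower over alpha, 17.8% and 11.8% over delta, 31.9% and 28.7% over endothelial, 25.2% and 23.4% over mural, and 33.4% and 25.8% over macrophage cells. In the list of the hexokinase step and its regulators, the genes higher and lower in beta cells, of 10 tested, were 3 and 2 over alpha, 3 and 3 over delta, 4 and 2 over endothelial, 4 and 4 over mural, and 4 and 5 over macrophage cells. G6pc2, the islet glucose-6-phosphatase, and Hk1, hexokinase 1, marked the extremes over alpha and endothelial cells. Hk1 had 1.00 and 1.08 CPM in beta cells of the library labelled BcBKO and of the flox/flox library, against 20.2 and 19.6 CPM in alpha and 47.5 and 45.3 CPM in endothelial cells. In the list of other isozymes, of 5 tested, they were 1 and 0 over alpha, 1 and 1 over delta, 4 and 1 over endothelial, 0 and 2 over mural, and 3 and 1 over macrophage cells. Ldha, lactate dehydrogenase A, had 5.48 and 4.95 CPM in beta cells of the library labelled BcBKO and of the flox/flox library, against 274 and 291 CPM in endothelial cells (log2 difference -6.11, adjusted p = 2.01e-14). Alpha cells had 4.26 and 1.66 CPM, and delta cells 7.99 and 3.04 CPM, in the library labelled BcBKO and the flox/flox library. Ldhb, lactate dehydrogenase B, was higher in beta than in alpha, delta, endothelial and macrophage cells (log2 differences 1.06, 1.60, 1.43 and 0.70). Against mural cells it was lower (-0.90).

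In the pyruvate entry list, of 9 tested, the genes higher and lower in beta cells were 3 and 1 over alpha, 4 and 1 over delta, and 2 and 1 over each of endothelial, mural and macrophage cells. Mpc1, a subunit of the mitochondrial pyruvate carrier, was higher in beta than in alpha and delta cells (log2 differences 0.93 and 0.96), and its partner Mpc2 was called only against endothelial cells among the beta-cell contrasts (0.86). Pdk4, a kinase that switches pyruvate dehydrogenase off, had 1.09 and 1.05 CPM in beta cells of the library labelled BcBKO and of the flox/flox library, while alpha cells had 101 and 153 CPM (log2 difference -6.95).

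In the list of other cycle genes, of 10 tested, 5 were higher in beta than in alpha cells, 5 than in delta, 3 than in endothelial, 2 than in mural and 6 than in macrophage cells, with 0 lower in each. Fh1, fumarate hydratase, was higher in beta cells in all 5 contrasts under the main scaling (log2 differences between 0.84 and 1.61). In the anaplerosis and export list, of 12 tested, the genes higher and lower in beta cells were 6 and 2 over alpha, 4 and 1 over delta, 6 and 2 over endothelial, 6 and 1 over mural, and 4 and 4 over macrophage cells. Acly, ATP citrate lyase, which turns exported citrate into acetyl-CoA, had 960 and 856 CPM in beta cells of the library labelled BcBKO and of the flox/flox library, against 338 and 267 CPM in alpha cells, and was higher in beta cells in all 5 contrasts. In the shuttle list, of 6 tested, they were 0 and 0 over alpha, 2 and 0 over delta, 3 and 1 over endothelial, 3 and 0 over mural, and 2 and 0 over macrophage cells. Gpd2, the mitochondrial glycerol-3-phosphate dehydrogenase, was higher in beta than in delta, endothelial, mural and macrophage cells (2.29, 0.79, 1.88 and 2.54) and had a log2 difference of 0.55 over alpha cells, which was not called.

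By genotype, Fh1, Ldhb and G6pc2 were among the genes of these lists that passed 0.25 in either direction in beta cells of the library labelled BcBKO over flox/flox. Of genes tested, 1 of 9 in the cycle list was at or above 0.25. At or below -0.25 were 2 of 4 in the hexokinase list and 1 of 1 among the isozymes. The other lists had 0 in either direction. Among all genes at 20 CPM or more, 3.79% and 3.82% passed. Fh1 had 185 and 140 CPM in the library labelled BcBKO and the flox/flox library, a log2 ratio of 0.40. On the other side, Ldhb had 31.5 and 51.0 CPM (-0.68) and G6pc2 1463 and 1962 CPM (-0.42) in the library labelled BcBKO and the flox/flox library. The G6pc2 log2 ratio was also negative in alpha (-0.27), delta (-0.17), endothelial (-0.31), mural (-1.03) and macrophage cells (-0.05). In those classes G6pc2 had between 50.6 and 130 CPM, far below beta cells, and insulin transcripts were present too. The part of free beta-cell RNA in these ratios was not tested. Near-identical copies of the 31 genes (Eno1b, Aldoart1, Aldoart2 and Pgk1-rs7) held at most 10 UMIs in any class and library.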

How the data were processed

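Islets of at least 3 mice per library were digested to single cells and captured with a 10x 3′ kit. The authors deposited UMI counts per gene and barcode, not normalized. Per the submitters' processing notes, Cell Ranger 3.1.0 and Seurat 4.0.0 were used on mm10, while per the file headers the matrices were written by cellranger 6.1.2, and the sources used here do not settle between them. Gene positions come from GENCODE M21 (GRCm38), which held all 31 identifiers, and promoters from RefSeq (GRCm38.p6).

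Barcodes with at least 500 genes, at least 1000 UMIs and at most 20% mitochondrial UMIs were kept, 8504 in the library labelled BcBKO and 7568 in the flox/flox library. Beta cells had at least 25% of UMIs from Ins1 and Ins2, at least 10000 UMIs, and under 1% each of Gcg, Sst and Ppy. With Ins1 and Ins2 under 15%, alpha cells had at least 10% Gcg, delta cells at least 5% Sst, endothelial cells at least 3 UMIs of Plvap and Cdh5, mural cells at least 5 of Rgs5 and Pdgfrb, and macrophages at least 5 of C1qa and C1qb. Doublets were kept, and those called by Scrublet (scanpy 1.11.5, assumed rate 8%) were removed in an alternative.

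UMIs were summed per class and library. CPM were computed without hormone genes (Ins1, Ins2, Iapp, Gcg, Sst, Ppy, Pyy, Ghrl) and mitochondrial genes, log2 ratios with a pseudocount of 1 CPM, and 95% intervals as exact Poisson, conditional or binomial intervals. UMIs are counted once per molecule, but intervals and floors (3 UMIs) cover counting error only. Class contrasts used edgeR 4.0.16 (glmQLFit, glmQLFTest, R 4.3.3) with TMM factors, a library term and Benjamini-Hochberg adjustment, checked on simulated counts; DESeq2 1.42.0 was an alternative. Positions of matches in promoters were searched on both strands. Tables and figures were made with pandas 2.3.3, scipy 1.17.1 and matplotlib 3.10.9 in Python 3.11.15.

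The 31 genes, the lists and the marker genes were chosen with earlier results of these data known. Named with values in every class are the phosphofructokinase, enolase, malate dehydrogenase and aminotransferase isozymes, Pkm, Pcx and Me1, or, for other genes, isozymes, the extremes of each list and a few fixed genes. The levels of Acly in alpha cells were added after their values were seen. Some genes of the neighbouring lists are not reported here.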

Additional observations from a re-analysis of the deposited data

How the results depend on the processing

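No paired analysis was possible because each genotype has 1 library. In the class contrasts the library is the block; with no replicate block all 12 counts of called genes stayed within 1.5 times, for example 9 higher over alpha and 14 higher over macrophage cells. Leaving out either library kept the direction of all 74 calls; the difference fell under 1.5-fold for 6 calls without the library labelled BcBKO and for 6 without flox/flox. DESeq2 (test or size factors), no filter on low counts, free RNA subtracted and endocrine cells from 10000 UMIs kept all counts within 1.5 times. Shares of Pfkp, Eno2 and Pcx in beta and alpha cells moved by less than their intervals under all alternatives run. Depth limits mural cells most. Several classes kept, endocrine cells from 10000 UMIs, no TMM factors and the contrasts scaled to all UMIs were added after seeing the data, and the cause of each change below was not tested beyond what the setting changes.

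Scaled to all UMIs, genes higher and lower in beta cells were 1 and 13 over alpha, 1 and 25 over delta, 3 and 23 over endothelial, 1 and 29 over mural, and 4 and 13 over macrophage cells, and 15 were lower in endocrine cells. The median of all genes was then -0.79, -1.18, -1.27, -1.39 and -0.53 in the 5 beta-cell contrasts, so the calls that turned lie above it: over alpha Bpgm -0.25, Eno2 -0.24, Aldoa -0.20, Pkm -0.14 and Pgam1 -0.30; over delta Eno1 -0.60, Bpgm -0.24, Suclg1 -0.51, Idh3a -0.66, Mdh1 -0.42 and Dlst -0.58; over endothelial Suclg1 -0.32, Tpi1 -0.71, Pdhb -0.54, Pkm -0.44 and Pgam1 -0.41; over mural Pkm -0.69; over macrophage Pdha1 -0.19, Mdh2 -0.058, Pkm -0.19 and Pgam1 -0.10. Without TMM factors the counts were 17 and 3 over endothelial, 5 higher over mural, 23 and 2 over macrophage cells (median of all genes 1.15), and 13 and 4 for endocrine cells; Gapdh (0.28), Cs (0.21) and Pfkp (0.23) turned over macrophages. With barcodes of several classes kept, 8 were higher and 4 lower over mural cells, against 3 and 8 in the main setting, and Tpi1 turned (0.20). By adjusted p alone, 21 were higher over alpha, 18 over delta, 17 over endothelial (8 lower), 6 over mural, and 9 higher and 13 lower in endocrine cells. Shares of all genes called under these settings are not given, and those printed above are for the main rule with at least 1.5-fold. These counts therefore show only how the calls move, not whether the enzymes differ from other genes.

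By genotype, the count at or above 0.25 in beta cells was 1 with a pseudocount of 0.1 CPM, with doublets removed and with stricter class thresholds (Eno2 each time), and 1 gene (Pgk1) was at or below -0.25 with no minimum level. With no minimum level the counts up and down were 6 and 2 in alpha, 5 and 5 in delta, 2 and 1 in endothelial, 4 and 7 in mural, and 4 and 8 in macrophage cells. TMM factors gave 1 up in alpha, 1 down in endothelial and 1 up in mural cells. All UMIs gave 0 up in delta, and 1 up and 2 down in macrophage cells. The mean over cells gave 1 up in delta, 1 in endothelial and 1 in mural cells. A pseudocount of 5 CPM gave 1 up in mural and 1 in macrophage cells, as did doublets removed (1 and 1), and the stricter cell filter gave 1 up in macrophages. Stricter class thresholds gave 1 up in alpha, 1 up in delta, 1 down in endothelial, 13 down in mural, and 4 up and 2 down in macrophage cells. They left 44 mural barcodes in the library labelled BcBKO and 104 in the flox/flox library. In the main setting 22.0% of all genes were up and 21.8% down in mural cells. Shares of all genes under the other settings are not given, so nothing is read from these counts about the enzymes.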
